A study of Mus musculus with 6 samples.

Results

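Enzymes that break down and make sphingomyelin were examined, together with a ceramidase and relatives of acid sphingomyelinase. The tissue was the mucosa of the middle small intestine of mice without and with alk-SMase. The 8 genes were chosen by name: Enpp7, Asah2, Smpd1, Smpd2, Smpdl3a, Smpdl3b, Sgms1 and Sgms2. All 8 were found among the 22700 rows of the deposited gene table, and all 8 passed the filter on low values. RNA-seq covered 3 alk-SMase knockout (KO) mice, named K79S, K82S and K86S, and 3 wild type (WT) mice, named W83S, W89S and W90S. All 6 were C57BL/6 mice and each gave 1 library. In the KO mice exon 2 of the alk-SMase gene, Enpp7, had been deleted with the Cre-loxP system. The age and sex of the mice are not given in the sources used here, and the labels name the tissue only as intestinal. Levels are FPKM, in which fragment numbers are divided by transcript length and by the size of the library, so that levels of different genes can be set side by side.

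Sphingomyelin is a phospholipid of cell membranes, milk and other foods. In the gut it is split by alk-SMase, an enzyme of the enterocyte brush border that needs bile salts, into phosphocholine and ceramide, and neutral ceramidase on the same membrane then cuts ceramide into sphingosine and a fatty acid that the enterocyte takes up. Within cells, acid and neutral sphingomyelinases release ceramide from sphingomyelin in lysosomes and other membranes, and the sphingomyelin synthases run the opposite way by moving phosphocholine from phosphatidylcholine to ceramide.

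The gene identifiers of the table stood beside the values of other genes and were put back by rank, as described with the methods. As a check on each member, the number of decimals printed in the neighbouring rows was set against the number of transcripts annotated for the restored genes. For 7 members this check fitted 94.2% to 98.3% of the neighbouring rows, taken up to 60 ranks away on either side. At the best of a few other shifts nearby it fitted at most 66.9%, and larger shifts were not tried. For Sgms1, which lies 4 ranks from the end of its block, it fitted 85.95% against 72.7%, so by its neighbouring rows its values are the least certain. Asah2 has 10 annotated transcripts but the printed decimals of its row are those of a gene with 1 transcript. Its own row thus fails the check that its neighbours pass, and its values are uncertain too.

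Enpp7, which encodes alk-SMase, lies on the plus strand at chr11:118988188-118993221 (GRCm38, the build that mm10 names, with the GENCODE M21 annotation), and has 2 transcripts. Among KO mice its level was 604.5 FPKM in K79S, 128.9 FPKM in K82S and 669.7 FPKM in K86S. Among WT mice it was 405.6 FPKM in W83S, 667.1 FPKM in W89S and 495.02 FPKM in W90S, and values below follow this order of mice. The highest and the lowest of the 6 values were both from KO mice, K82S stood far below the rest, and the groups overlapped. KO mice averaged 468 ± 295 FPKM and WT mice 523 ± 133 FPKM (SD, n = 3 each). Fitted on log2(FPKM + 1), KO against WT, the log2 fold change was -0.45 with an SE of 0.64 and a 95% interval from -1.97 to 1.07 (limma, adjusted p = 0.782). By exact permutation of the mice (two-sided) p was 0.9, where 0.1 is the smallest p that 3 against 3 mice can give. P-values here set the difference against the spread between these few mice. In limma that spread is also drawn toward the spread of other rows. K82S set the direction, since without it the log2 fold change was 0.31 (adjusted p = 0.493, limma).

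The exon that was removed is shown here because its length decides what the remaining transcript can encode. Exon 2 lies on the plus strand at chr11:118988766-118988911, is coding throughout and belongs to both transcripts. Its 146 bases leave a remainder of 2 on division by 3. In the second sequence the last 30 bases of exon 1 (chr11:118988431-118988460) are joined to the first bases of exon 3 (chr11:118990421-118990527), as they would be without exon 2, and capitals mark the first stop codon in the frame of exon 1.
Enpp7 exon 2: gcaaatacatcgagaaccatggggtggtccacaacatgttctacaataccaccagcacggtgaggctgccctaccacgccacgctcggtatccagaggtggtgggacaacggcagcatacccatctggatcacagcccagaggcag
Enpp7 exon 1 joined to exon 3: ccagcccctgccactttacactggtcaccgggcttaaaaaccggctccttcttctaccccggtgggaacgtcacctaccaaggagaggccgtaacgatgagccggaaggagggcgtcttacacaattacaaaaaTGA
Read from the start codon, exon 1 gives 81 complete codons, and the joined sequence runs through 35 further codons out of frame to TGA, at base 105 of exon 3. The open frame is then 116 codons, against 446 and 439 codons in the intact transcripts. Exon 2 makes up 10.7% of the longer-coding transcript (1370 bases in all) and 7.59% of the other (1923 bases). If only the reads of exon 2 were lost, the gene level would drop by no more than 0.16 on the log2 scale. In that case an FPKM summed over the gene gives no check of the deletion or of the genotype labels. Any other effect of the deletion on the amount of transcript was not tested, and reads on exon 2 alone were not analysed here.

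Asah2 encodes neutral ceramidase, the enzyme that acts after alk-SMase at the brush border, and lies on the minus strand at chr19:31982597-32108211. Its level was 203.3, 78.5 and 267.2 FPKM in KO and 176.7, 111.4 and 189.1 FPKM in WT. As with Enpp7, the lowest value was that of K82S and the highest that of K86S, while W89S was the lowest of the WT libraries here and the highest of them for Enpp7. KO averaged 183 ± 96.0 FPKM and WT 159 ± 41.7 FPKM (SD, n = 3 each). Between them the log2 fold change was 0.07 (SE 0.48, 95% interval -1.07 to 1.20, limma adjusted p = 0.960), with p = 0.9 in the exact permutation test. The sign turned when K79S, K86S or W89S was left out, with values down to -0.29.

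K82S also stood apart in part of the markers of position along the intestine and of other cells. The level of Lct, which encodes lactase, was 76.3 FPKM in K82S and 163.3 to 489.8 FPKM in the other 5 libraries. Slc51a and Slc51b, which encode the subunits of a basolateral bile acid transporter that is more abundant toward the ileum, were 884.6 and 715.3 FPKM in K82S and at most 449.6 and 403.5 FPKM elsewhere. These 2 genes made up most of the summed level of the 4 measured genes of a list of 6 distal markers, which was 1655 FPKM in K82S and 352 to 918 FPKM in the other libraries. The remaining distal markers, Osr2 (25.5 FPKM) and Cubn (29.8 FPKM), lay inside the range of the others in K82S, and Fabp6 and Slc10a2, defining markers of the ileum, had no row that could be assigned. Of 7 proximal markers, 4 were lowest in K82S, namely Fabp1, Adh6a, Gata4 and Pdx1, and 0 were highest there. Pdx1 was close to 0 in K82S (0.050 FPKM), W89S (0.0999 FPKM) and W90S (0.128 FPKM), so its rank there says little. The proximal sum, mostly Fabp1, was 1057 FPKM in K82S and 1405 to 5749 FPKM in the others. Slc40a1, Cybrd1 and Onecut2 lay inside the range of the others in K82S. W83S stood apart the other way in part of this list. It was highest for Gata4 (47.2 FPKM), Slc40a1 (7.08 FPKM), Cybrd1 (6.05 FPKM) and Pdx1 (5.44 FPKM). Fabp1 and Adh6a were highest in W90S, and Onecut2 in K86S. All 4 measured B and plasma cell markers were highest in K82S. The part of these markers in the levels of Enpp7 and Asah2 was not tested. In bulk tissue, fewer cells of a type and less RNA per cell cannot be told apart.

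Enpp7 made up 1.85% of the summed level of 14 villus enterocyte markers in K82S, against 5.70% to 10.4% in the other 5 libraries. The marker sum itself was 6982 FPKM in K82S, inside the range of 6239 to 10603 FPKM of the others. Asah2 was 1.13% of that sum in K82S and 1.73% to 2.93% elsewhere. Against single markers, the ratio of Enpp7 to the marker was lowest in K82S for 13 of the 14, all but Lct. The ratio of Asah2 was lowest there for 9 of 14, and not for Sis, Lct, Mgam, Treh and Ace, which were themselves lowest in K82S. Alpi was lowest in K82S too, so 6 of the 14 villus markers had their lowest level in that library. The other way, 2 of the 14 were highest there, namely Mep1a (397.8 FPKM) and Mep1b (942.9 FPKM).

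The plot of centred levels by library sets the 5 most abundant members beside these marker sums.

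**Figure D1:**
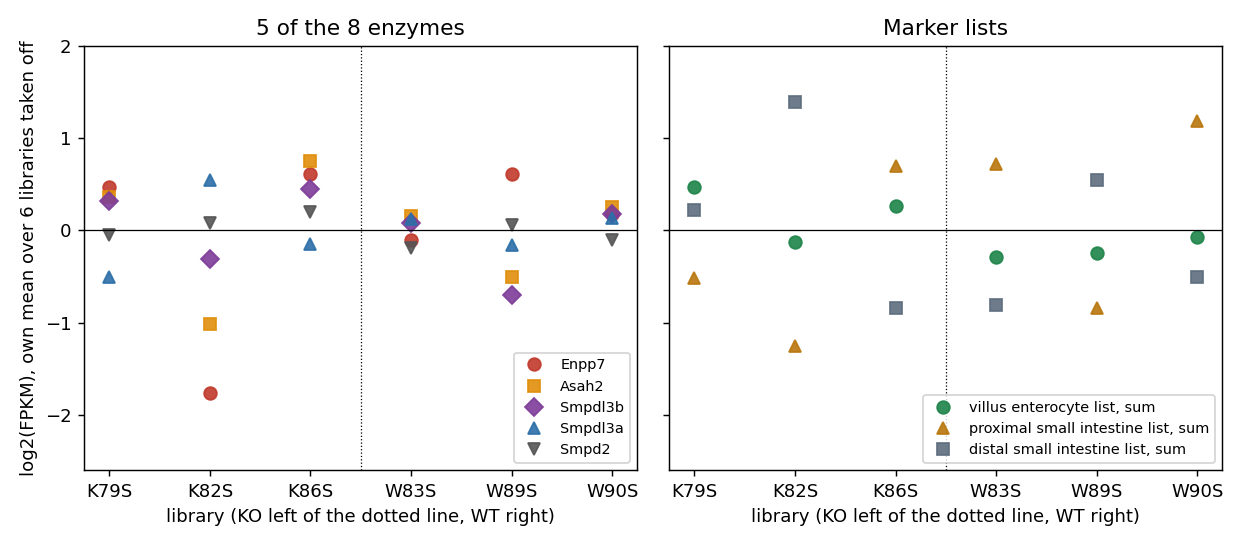
Each point is a log2 level (FPKM) in one library with its own mean over the 6 libraries taken off, for 5 of the enzymes at left and for 3 marker lists, summed, at right, with the KO libraries left of the dotted line. Enpp7 and Asah2 lie lowest in K82S, at 128.9 and 78.5 FPKM, where the distal list is highest (1655 FPKM) and the proximal list lowest (1057 FPKM).

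The genes whose level over the 6 libraries was closest to each of these members were found by the root mean square difference of centred log2(FPKM + 1), among 4535 named genes with a mean of at least 10 FPKM. For Enpp7 these were Maob (0.226), Glud1 (0.252), Slc5a4b (0.264), Gemin7 (0.273) and Glud-ps (0.287), against a spread of Enpp7 itself of 0.825. Maob was 14.0 FPKM in K82S and 51.0 to 70.9 FPKM in the other libraries. Glud-ps is a pseudogene of Glud1 and may share its reads. For Asah2 they were Acot12 (0.087), Nr1i3 (0.091), Cdr2 (0.0999), Ephx2 (0.115) and Mertk (0.115), against its own spread of 0.583. Acot12 was 8.28 FPKM in K82S, 12.2 FPKM in W89S and 19.2 to 33.2 FPKM in the other 4, the same pair of low libraries as for Asah2. The likeness is a description over 6 libraries, in which the low level of K82S weighs most.

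Promoter sequences were examined for Enpp7 and Asah2 because both were lowest in K82S, and for Smpd2 because it had the smallest spread between mice of a genotype. Sequences are from RefSeq on GRCm38.p6, 5′ to 3′ on the strand of the gene, from 250 bases before to 50 bases after the start. Of the 8 members 7 matched an entry of the promoter table, and Smpdl3a did not. Motifs of 6 factors or elements of intestinal or general promoters were searched on both strands, and capitals mark the matches. For GATA factors the letters were AGATAA. For SP1 they were GGGGCGG. For HNF1 they were GTTAAT. For CDX factors they were TTTATNG, which can overlap the letters TATAAA that were searched for the TATA box. For HNF4 they were CAAAGTCCA.
Enpp7 promoter, chr11:118987931-118988230, plus strand: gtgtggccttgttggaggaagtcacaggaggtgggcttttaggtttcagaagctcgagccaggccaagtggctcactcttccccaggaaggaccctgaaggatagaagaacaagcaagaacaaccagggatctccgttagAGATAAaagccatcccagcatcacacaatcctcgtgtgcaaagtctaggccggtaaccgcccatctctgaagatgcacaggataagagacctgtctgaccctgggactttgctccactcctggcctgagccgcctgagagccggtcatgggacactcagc
Asah2 promoter, chr19:32103091-32103390, minus strand: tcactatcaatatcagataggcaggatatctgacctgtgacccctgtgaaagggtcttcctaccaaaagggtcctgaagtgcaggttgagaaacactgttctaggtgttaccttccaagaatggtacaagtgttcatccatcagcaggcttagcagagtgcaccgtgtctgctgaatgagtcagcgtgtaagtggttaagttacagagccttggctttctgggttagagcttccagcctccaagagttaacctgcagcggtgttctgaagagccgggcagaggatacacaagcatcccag
Smpd2 promoter, chr10:41490291-41490590, minus strand: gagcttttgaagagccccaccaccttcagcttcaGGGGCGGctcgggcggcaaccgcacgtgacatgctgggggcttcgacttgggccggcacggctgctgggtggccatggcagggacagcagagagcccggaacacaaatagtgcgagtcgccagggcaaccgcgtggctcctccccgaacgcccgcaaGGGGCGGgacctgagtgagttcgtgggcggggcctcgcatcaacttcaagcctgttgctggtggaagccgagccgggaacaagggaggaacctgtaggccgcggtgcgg
The Enpp7 window held AGATAA once, with its first base at -110 from the start, a match that 11.2% of 32851 promoters also held. The Asah2 window held no match to any of the 6 motifs. The Smpd2 window held GGGGCGG at -216 and -59, which 23.2% of all promoters held at least once. The other shares were 7.10% for HNF1, 10.9% for CDX, 13.6% for the TATA box and 0.475% for HNF4. A match of letters is not a binding site, and no match says only that these letters are not in this window.

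Smpdl3b and Smpdl3a are relatives of acid sphingomyelinase, the first held on the cell surface by a lipid anchor and the second secreted and able to cut nucleotides. Smpdl3b (chr4:132732966-132757252, minus strand) was 102.9, 66.6 and 112.8 FPKM in KO and 87.2, 50.7 and 93.5 FPKM in WT. The 2 lowest values were those of K82S and W89S, as for Asah2, and the groups overlapped. KO averaged 94.1 ± 24.3 FPKM and WT 77.1 ± 23.1 FPKM (SD, n = 3 each), with a log2 fold change of 0.30 (SE 0.31, 95% interval -0.45 to 1.04, limma adjusted p = 0.700).

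Smpdl3a (chr10:57794335-57811830, plus strand) was 39.2, 81.6 and 50.5 FPKM in KO and 61.1, 50.1 and 61.5 FPKM in WT. Here K82S was the highest of all libraries, so that the level ran opposite to that of Enpp7, Asah2 and Smpdl3b there. Means of 57.1 ± 21.9 FPKM (KO) and 57.5 ± 6.46 FPKM (WT; SD, n = 3 each) differed by less than the spread between mice. In the fit the log2 fold change was -0.07 (SE 0.28, 95% interval -0.74 to 0.60, limma adjusted p = 0.931), and its sign turned to 0.11 when each library was scaled to the same sum and to 0.16 without K79S.

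The ratio of Smpdl3b to Smpdl3a within a library, which does not depend on how the library was scaled, was 2.62, 0.817 and 2.24 in KO and 1.43, 1.01 and 1.52 in WT. K82S was the only library in which Smpdl3a exceeded Smpdl3b. The log2 ratio was higher in KO by 0.37, which the exact two-sided permutation test did not separate from 0 (p = 0.6). The ratio of Asah2 to Enpp7 was 0.336, 0.609 and 0.399 in KO and 0.436, 0.167 and 0.382 in WT, so that K82S had the most ceramidase message per alk-SMase message and W89S the least. Its log2 difference was 0.52 (exact permutation p = 0.5).

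Smpd2 encodes a neutral sphingomyelinase of internal membranes and lies on the minus strand at chr10:41485642-41490369. It overlaps Mical1 on the other strand, and the handling of strand is not given in the sources used here, so reads of the 2 genes may be mixed. Its level was 8.49, 9.30 and 10.04 FPKM in KO and 7.69, 9.14 and 8.15 FPKM in WT, with K82S in the middle of the KO values. The means were 9.27 ± 0.775 FPKM and 8.33 ± 0.741 FPKM (SD, n = 3 each), and the groups overlapped. The log2 fold change of 0.14 (SE 0.13, limma adjusted p = 0.666) had a 95% interval from 0.886-fold to 1.37-fold, which did not reach 1.5-fold on either side. This bound holds only for FPKM as deposited. With every library scaled to the same sum, the log2 fold change was 0.32 (SE 0.14, limma adjusted p = 0.392).

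Smpd1 encodes acid sphingomyelinase, the lysosomal enzyme, at chr7:105554360-105558389 on the plus strand. Its level was 2.497, 3.31 and 1.72 FPKM in KO and 2.78, 2.003 and 1.87 FPKM in WT. The highest and lowest values were K82S and K86S, both KO, and the groups overlapped. The means were 2.51 ± 0.797 FPKM and 2.22 ± 0.493 FPKM (SD, n = 3 each), with a log2 fold change of 0.11 (SE 0.21, 95% interval -0.39 to 0.61, limma adjusted p = 0.844). Without K82S the value was -0.050. The ratio of Smpd1 to Smpd2 ranged from 0.171 to 0.356 in KO and from 0.219 to 0.362 in WT, and the exact permutation test gave p = 1.0.

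Sgms2 encodes the sphingomyelin synthase of the plasma membrane (chr3:131318985-131491411, minus strand, overlapping Gm43116). Its level was 5.02, 5.24 and 4.18 FPKM in KO and 3.65, 3.89 and 3.36 FPKM in WT. Every KO library was above every WT library, and Sgms2 was the only member whose groups did not overlap. Of all 13089 rows tested, 17.2% did not overlap between groups, and all KO libraries were above all WT libraries in 5.90% and below them in 11.3%. KO averaged 4.81 ± 0.558 FPKM and WT 3.63 ± 0.262 FPKM (SD, n = 3 each), a ratio of 1.32. Its log2 fold change was 0.32 with an SE of 0.13, and the limma p of 0.0424 became an adjusted p of 0.393 over all rows, so the difference did not pass the test. The exact permutation test gave its smallest possible p, 0.1. The value stayed between 0.27 and 0.53 under 15 other settings, with adjusted p from 0.147 to 0.760 (limma).

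Sgms1 encodes the synthase of the Golgi and lies on the minus strand at chr19:32122727-32389714, where it overlaps AC113485.1 and 2700046G09Rik. Its level was 1.99, 3.72 and 2.02 FPKM in KO and 1.68, 2.25 and 1.96 FPKM in WT. K82S was well above the other 5 libraries, and the groups overlapped. KO averaged 2.58 ± 0.991 FPKM and WT 1.96 ± 0.289 FPKM (SD, n = 3 each). The log2 fold change was 0.24 (SE 0.21, 95% interval -0.27 to 0.75, limma adjusted p = 0.642), and it was 0.025 without K82S. The ratio of Sgms2 to Sgms1 was 2.52, 1.41 and 2.07 in KO and 2.18, 1.72 and 1.71 in WT, so the plasma membrane synthase had the higher level in all 6 libraries. The log2 ratio differed by 0.06 between genotypes (exact permutation p = 1.0).

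The levels of the 8 members spanned from a mean of 495.1 FPKM for Enpp7 to 2.27 FPKM for Sgms1 over the 6 libraries. The order between them was Asah2 (171 FPKM), Smpdl3b (85.6 FPKM), Smpdl3a (57.3 FPKM), Smpd2 (8.80 FPKM), Sgms2 (4.22 FPKM) and Smpd1 (2.36 FPKM). Neighbours whose ranges did not overlap were Smpdl3a above Smpd2 (6.51-fold), Smpd2 above Sgms2 (2.08-fold) and Sgms2 above Smpd1 (1.79-fold). Enpp7 exceeded Asah2, and Asah2 exceeded Smpdl3b, within each of the 6 libraries, although their ranges overlapped. Smpd1 and Sgms1 did not differ beyond their spread. By RNA level the 4 most abundant were thus Enpp7, Asah2, Smpdl3b and Smpdl3a, described above as enzymes of the cell surface or secreted. The 4 least abundant were not all of internal membranes, since Sgms2, the synthase of the plasma membrane, was among them.

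Enpp7 held 34.2% to 74.4% of the summed level of the 8 members in a library. Among the 5 members of the phosphodiesterase kind (Enpp7, Smpd1, Smpd2, Smpdl3a and Smpdl3b) its share was 79.8%, 44.5% and 79.3% in KO and 71.9%, 85.6% and 75.0% in WT. Enpp7 was the largest of these in all 6 libraries, K82S included.

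**Figure D2:**
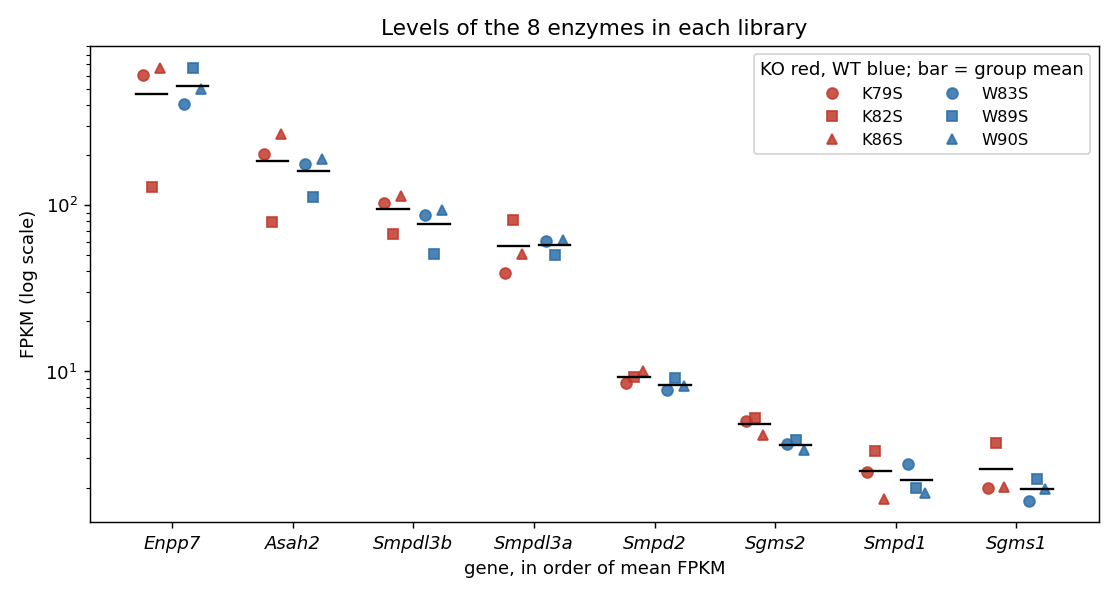
Level of each enzyme in FPKM (log axis) in the 3 KO libraries (red) and the 3 WT libraries (blue), with group means as bars and the genes in order of mean level. Enpp7 is highest in every library (128.9 to 669.7 FPKM), and only Sgms2 has all KO values above all WT values.

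Of the 8 members, 0 passed the thresholds of an adjusted p under 0.05 and a 1.5-fold change (limma), where 0.00764% of all rows did, which was 1 row of 13089. At an unadjusted p under 0.05 there was 1 member, Sgms2, against 12.5% of all rows and 2.87% in the direction of higher in KO. The log2 fold change was above 0 for 6 of the 8 members, against 42.3% of all rows, and their median was 0.13 against -0.06 over all rows. This lean was not particular to the members, since 13 of the 14 villus enterocyte markers were higher in KO, with a median of 0.24. With every library scaled to the same sum, the median of all rows became 0.09, and 7 of 8 members were above 0 with a median of 0.30. That scaling also turned the rows with an unadjusted p under 0.05 from 376 higher and 1262 lower in KO to 1057 higher, which was 8.08% of all rows, and 593 lower. Without K82S, 1184 rows (9.28% of 12764) passed the thresholds, and 0 of the 8 members were among them.

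**Figure D3:**
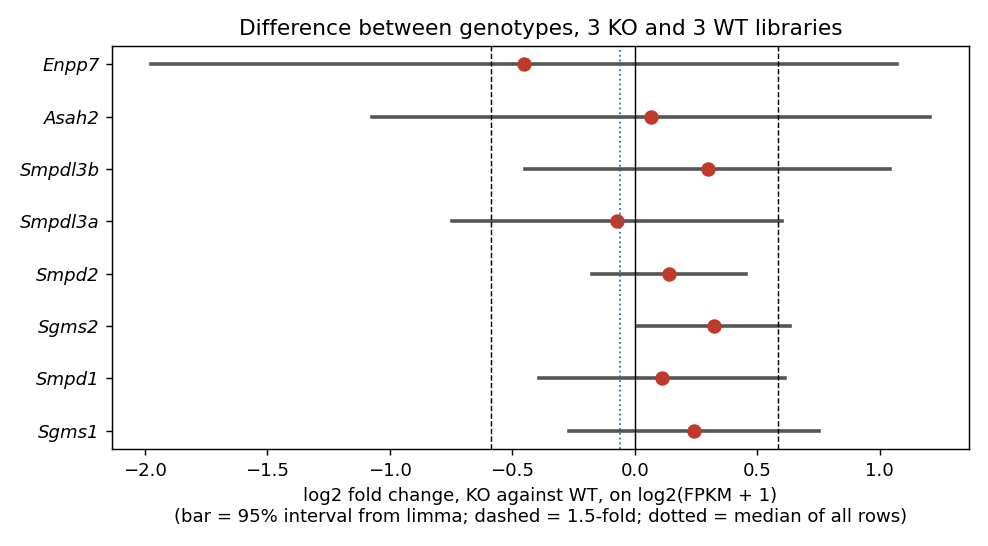
Points are log2 fold changes of KO against WT on log2(FPKM + 1) and bars their 95% intervals from limma, with 1.5-fold dashed and the median of all rows (-0.06) dotted. For FPKM as deposited, the interval of Enpp7 is the widest (-1.97 to 1.07), that of Smpd2 lies inside 1.5-fold, and that of Sgms2 begins just above 0.

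The members differed in their spread between these mice of one genotype. The SD between libraries of a genotype, on log2(FPKM + 1), was 0.972 for Enpp7, larger than in 97.1% of all rows tested. It was 0.713 for Asah2, larger than in 93.8% of rows, and the median of all rows was 0.244. Smpdl3b (0.440) and Smpdl3a (0.391) lay above that median too, and Smpd1 (0.280) and Sgms1 (0.284) near it. Smpd2 (0.111) and Sgms2 (0.116) varied less than most, with 10.4% and 11.6% of rows below them. Adding 1 to FPKM narrows the spread of genes at low levels. Among rows of a similar level, Enpp7 still varied more than 91.5% and Smpd2 more than 10.98%. K82S accounted for most of the spread of Enpp7 and Asah2. Without it, a choice made after the data were seen, their SDs were 0.301 and 0.373, larger than in 74.9% and 82.9% of rows, and the median of all rows was 0.193. Smpdl3a fell to 0.198 and Sgms1 to 0.115 without K82S, and Sgms2 to 0.0701 without K86S.

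**Figure D4:**
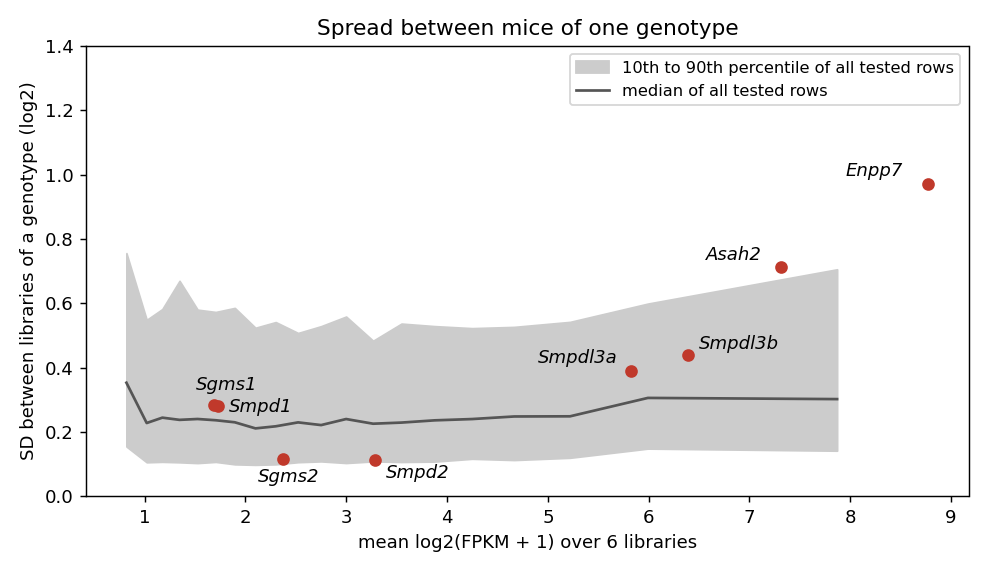
SD between libraries of one genotype (log2 units) against mean log2(FPKM + 1), with the 10th to 90th percentile of all tested rows in grey and their median as a line. Enpp7 (0.972) lies to the right of the band, which ends at a mean of 7.87. Asah2 (0.713) lies near the upper edge of the band, Smpd2 (0.111) and Sgms2 (0.116) near its lower edge.

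Of 29 other genes of sphingolipid metabolism, 22 had a row, and all 22 were tested. None of these 22 passed the thresholds and 0 had an unadjusted p under 0.05 (limma), where 0.00764% and 12.5% of all rows did. By their log2 fold change 13 were higher and 9 lower in KO, and the median was 0.10. Of all rows 42.3% were higher in KO, with a median of -0.06. The counts of higher and lower were 1 and 2 for other phosphodiesterases and synthases, 5 and 4 for genes that make or move ceramide, 4 and 1 for genes that use ceramide, and 3 and 2 for sphingosine metabolism. Smpd5, Enpp2, Enpp6, Sptlc3, Cers4, Acer2 and Acer3 were not analysed here, since no row could be assigned to them. Groups did not overlap for 3 of the 22, where 17.2% of all rows did not. These were Ugcg and Cers6 with KO above WT and Smpd4 with KO below WT, named after their values were seen.

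Ugcg, which adds glucose to ceramide to make glucosylceramide, had the largest log2 fold change, 0.51 (SE 0.22, limma adjusted p = 0.393). Its level was 62.5, 37.5 and 48.7 FPKM in KO and 30.03, 36.8 and 34.4 FPKM in WT, with K82S only just above the highest WT library. Col4a3bp, which carries ceramide from the endoplasmic reticulum to the Golgi where Sgms1 acts, was 3.77, 3.15 and 6.11 FPKM in KO and 5.59, 5.93 and 5.71 FPKM in WT. Its log2 fold change was -0.37 (limma adjusted p = 0.460), and K86S stood above all WT libraries. Sphk1, a sphingosine kinase, was lowest in K82S at 0.869 FPKM and 2.06 to 3.98 FPKM in the others, with a log2 fold change of -0.36 that became 0.0063 without K82S.

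The most abundant of the 22 were Psap, Sgpl1 and Degs2. Psap, the precursor of the saposins that help lysosomal enzymes reach their lipids, was even, at 142, 143 and 133 FPKM in KO and 151, 132 and 137 FPKM in WT. Sgpl1, the lyase that ends the pathway by cutting sphingosine 1-phosphate, was 105.8, 43.2 and 117.7 FPKM in KO and 78.95, 62.4 and 88.99 FPKM in WT. Its lowest libraries were K82S and W89S, the pair that was lowest for Asah2 and Smpdl3b. Degs2, which makes phytoceramides, was 74.2, 43.4 and 73.9 FPKM in KO and 45.2, 46.7 and 72.3 FPKM in WT. None of the 3 passed the test (log2 fold changes of -0.00, 0.10 and 0.21).

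**Figure D5:**
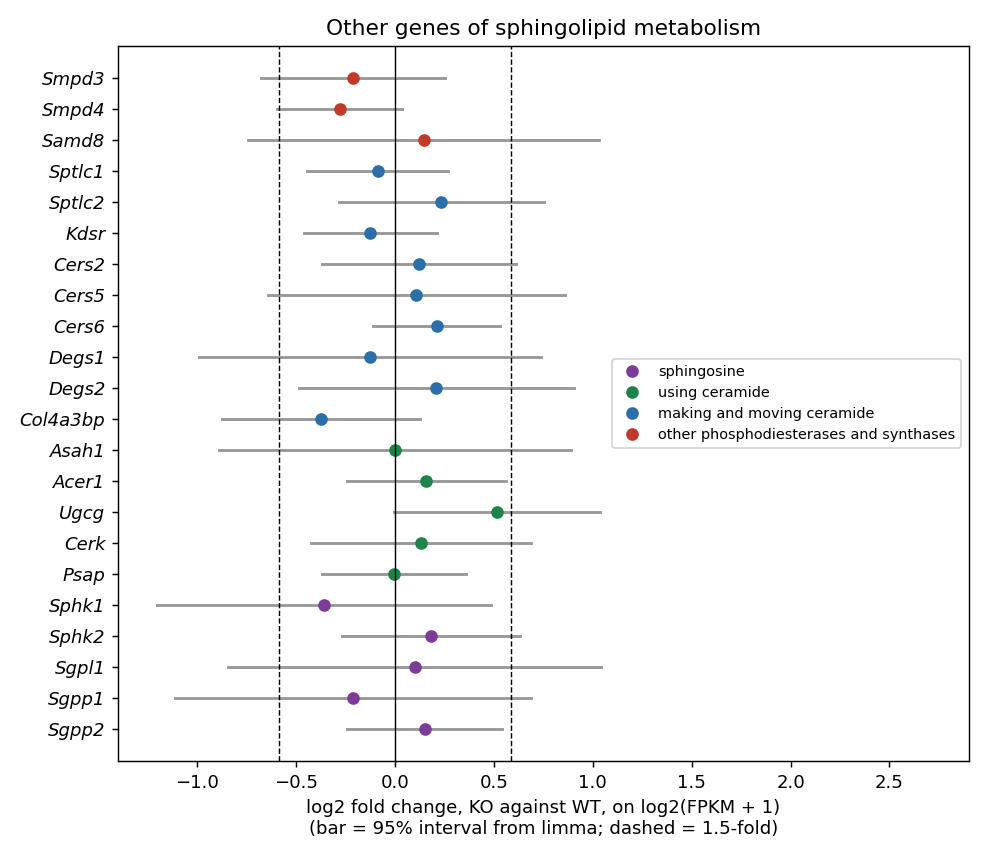
Log2 fold changes of KO against WT on log2(FPKM + 1), with 95% intervals from limma, for the 22 other genes of sphingolipid metabolism with a row, coloured by their place in the pathway, with 1.5-fold dashed. All 22 intervals include 0, and Ugcg (0.51) lies farthest to the right.

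The libraries as a whole summed to 393152 to 495362 FPKM, and all 3 KO sums were below all WT sums. W83S held 41019 FPKM of 7 measured gastric markers and 2323 FPKM of 3 pancreatic acinar markers, where the other libraries held at most 5.72 and 5.30 FPKM. Its member levels lay inside the range of the other 5 libraries for all members but Smpd2 and Sgms1, for which it was lowest. Such a range can be wide (128.9 to 669.7 FPKM for Enpp7), and the part of gastric and pancreatic RNA in the member levels was not tested. The Y-linked gene Eif2s3y was listed at 0 in K79S and at 5.69 to 8.16 FPKM in the other 5. Ddx3y, also Y-linked, was 0.0279 FPKM in K79S and 2.93 to 4.01 FPKM in the others. All WT libraries thus held Y-linked RNA and the KO libraries were mixed, and the part of sex in the differences between genotypes was not tested. Enterocyte markers were abundant in all 6 libraries, led by Anpep, Vil1 and Mep1b. Macrophage markers (7 of 8 measured) summed to 65.6 to 203 FPKM in KO and 90.3 to 246 FPKM in WT, B and plasma cell markers (4 of 5) to 67.4 to 241 and 87.0 to 111 FPKM, smooth muscle markers (3 of 6) to 13.4 to 29.1 and 10.6 to 33.6 FPKM, and cycling crypt markers (3 of 5) to 7.18 to 30.8 and 31.9 to 75.4 FPKM. The crypt sums were lower in all KO than in all WT libraries through Olfm4, while Mki67 and Top2a overlapped between groups, and the part of these markers in the levels of Sgms2 was not tested.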

How the data were processed

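RNA-seq of the mucosa of the middle small intestine was analysed for 3 KO and 3 WT mice. The authors made 50 bp single-end reads, mapped them with HISAT2 to mm10 (tool and build also in the submitters' processing notes) and assembled them with StringTie. Versions and the strand setting are not given in the sources used here. Deposited by the authors were FPKM values for each gene in each library, and whether an edgeR normalization entered them is not stated. FPKM keep no read counts and low values showed no clear step of 1 read, so the reads behind each value are unknown, although the study lists read totals per library, and edgeR, the test the authors used, could not be run. Precision therefore rests on 3 mice per genotype and, in limma, also on the spread of other rows. There were 0 columns that could not be mapped to a sample.

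The identifiers in the table stand beside values of other genes. Identifiers were ranked by the K79S values beside them and rows by their W83S values, and each identifier was moved to the row of its rank plus a small offset fixed for each block of ranks. This gave 12402 of 22700 rows a gene, and the rest were used without a name.

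Rows under 1 FPKM in more than 4 libraries were left out (13089 remained). The limma package (3.58.1, under R 4.3.3) fitted log2(FPKM + 1) (eBayes with a trend, Benjamini-Hochberg adjustment over all rows). The pseudocount of 1 understates the change of low genes. Calls needed an adjusted p under 0.05 and a fold above 1.5 or below its inverse. The fit was tested on simulated data of 13089 rows with 200 changed. With each row's own SD, 163 were called at a log2 change of 2 and 46 at 1, with 6 and 4 unchanged rows called. The changed rows had a mean log2(FPKM + 1) above 2, a level that Smpd1 and Sgms1 did not reach. Noise was drawn independently for each row, so shifts shared by many rows of a library were not simulated. Single values were tested by exact two-sided permutation. Tables and figures used Python 3.11.15, and exon and promoter sequences came from GENCODE M21 and RefSeq. Named were all members, the 3 pathway genes with the largest fold change and the 3 with the highest mean, the 5 genes nearest in profile to Enpp7 and to Asah2, and leading markers. A gene of the pathway list is not reported here and was left out of its counts. The members and lists were chosen with earlier results of these data known. Alternatives were other pseudocounts, filters, scalings, array weights and leaving out libraries. The authors' table of differentially expressed genes was not used.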

Additional observations from a re-analysis of the deposited data

How the results depend on the processing

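The 8 members were refitted under 15 other settings, 120 values in all, of which 109 kept their direction, 11 reversed and 0 passed the thresholds. The lowest adjusted p was 0.147 (Sgms2, array weights, limma). Counts of members and of pathway genes called were 0 throughout. The number of rows called, 1 as reported, was 0 with a pseudocount of 0.1 or 0.01, 2 with array weights, 0 to 1184 when 1 library was left out (1184 without K82S) and 1111 without K82S and W83S together, a setting chosen after the data were seen. Reversed directions were as follows. Enpp7 was 0.078 with array weights, 0.15 without K82S and W83S, and from -0.87 to 0.31 when 1 library was left out. Leaving out 1 library gave -0.29 to 0.59 for Asah2, -0.050 to 0.28 for Smpd1, -0.36 to 0.16 for Smpdl3a, -0.64 to 0.0063 for Sphk1, -0.046 to 0.049 for Psap and -0.16 to 0.55 for Sgpl1. Smpdl3a was 0.11 and Psap 0.18 with all libraries scaled to the same sum, and 0.011 and 0.077 with the same median in each library. Without K82S and W83S, Sgms1 was -0.046 and Psap 0.032. The cause was not tested. The log2 differences of within-library ratios moved by less than 1 SD, but leaving out 1 library took Sgms2 to Sgms1 from -0.13 to 0.30 and Smpd1 to Smpd2 from -0.23 to 0.30, across 0, Smpdl3b to Smpdl3a from 0.055 to 0.90 and Asah2 to Enpp7 from 0.089 to 0.78. The study describes its mice as matched. No paired analysis was possible because the labels give no number shared by a KO and a WT mouse. With 3 mice a genotype, Enpp7 and Asah2 intervals were wider than 1.5-fold in both directions.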
